A study of Mus musculus with 34 samples.

Results

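Phospholamban (Pln) and 9 further genes of the calcium handling of the cardiomyocyte (CM) were followed in the mouse left ventricle (LV) after myocardial infarction (MI). The genes were listed by name, with earlier results of these data known: Pln, Atp2a2, Ryr2, Casq2, Trdn, Hrc, Slc8a1, Cacna1c, Cacnb2 and Camk2d. All 10 were found among the 14552 genes of a first table with 10 libraries and among the 17406 genes of a second table with 24 libraries, and all 10 passed the filter of a mean of at least 1 CPM in both.

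All hearts came from CFW mice, an outbred Swiss Webster stock, and no group carried a genetic change. The age of the mice is not given in the sources used here. For MI, the left anterior descending artery was tied off for good. The first table holds uninjected hearts: 3 controls, 3 hearts 4 h post-MI and 4 hearts 24 h post-MI, with RNA from the ischemic area or the matching area of control hearts. Those controls are called sham by their titles and by the study's methods, but their condition label reads no operation, and they are called sham here. The second table holds 2 sham hearts and infarcted hearts whose border zone was injected right afterwards with modified mRNA (modRNA) labelled Luc or AC. Luc stands for luciferase, a reporter enzyme, and its hearts are the comparison for AC here, whereas the labels do not spell out AC. Luc and AC hearts were taken at 4 h (4 and 4), 24 h (3 and 3) and 48 h (4 and 4). Their sham hearts carry a 4 h label with no injection, so MI and injection cannot be told apart in Luc against sham. The area of the LV sampled for the second table is not given in the sources used here. The names of the 24 h libraries are built differently from those of the others, which carry separate sample numbers at 4 h and at 48 h, so time and sequencing set cannot be told apart. Each library is taken as a separate mouse, and p-values measure the spread between these libraries.

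In each heartbeat, voltage-gated L-type channels of the CM membrane let a little calcium in, and this opens ryanodine receptors that release far more from the sarcoplasmic reticulum (SR). The SR pump SERCA2a and the sodium-calcium exchanger of the cell membrane then clear calcium so that the muscle relaxes. Phospholamban is a small SR membrane protein that holds SERCA2a back until it is phosphorylated, which is one of the ways in which adrenaline quickens relaxation. Among the members, Atp2a2 codes for SERCA2 and Pln for its inhibitor. Ryr2 is the release channel, Casq2 the calcium-storing calsequestrin, Trdn (triadin) the anchor between these, and Hrc a histidine-rich calcium-binding protein of the SR lumen. Slc8a1 is the sodium-calcium exchanger, Cacna1c and Cacnb2 are the pore and the beta subunit of the L-type channel, and Camk2d is the main heart isoform of the calmodulin-dependent kinase that phosphorylates Pln and Ryr2.

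Since most members moved together 24 h post-MI, the sequence before their transcription starts was examined. RefSeq promoters on GRCm38.p6, the assembly also called mm10, were listed for 8 of the 10 members, and the 250 bases before each of their 11 starts were searched on both strands for 5 short motifs. These were the letters TATAAA of a promoter box near many starts, the letters AGATAA bound by GATA factors, the MEF2 motif, the muscle motif M-CAT as CATTCC, and an E-box read as CAGCTG. The promoters of 3 members are shown, 5′ to 3′ on the strand of the gene, because they belong to the pump inhibitor, to an SR storage protein and to the exchanger and hold a match, which is in capitals. For Pln the 19 bases next to the start are left out.
Pln, chr10:53337436-53337666 (+): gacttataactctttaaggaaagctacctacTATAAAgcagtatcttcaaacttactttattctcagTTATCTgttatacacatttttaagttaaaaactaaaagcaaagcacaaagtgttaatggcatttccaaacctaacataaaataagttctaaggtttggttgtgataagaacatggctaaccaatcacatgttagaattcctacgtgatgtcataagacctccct
Hrc, chr7:45335019-45335268 (+): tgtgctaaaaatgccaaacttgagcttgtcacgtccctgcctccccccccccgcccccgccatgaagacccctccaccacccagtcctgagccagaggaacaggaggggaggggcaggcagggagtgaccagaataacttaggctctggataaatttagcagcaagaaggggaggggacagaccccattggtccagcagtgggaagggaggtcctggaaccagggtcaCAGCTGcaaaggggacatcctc
Slc8a1, chr17:81738388-81738637 (-): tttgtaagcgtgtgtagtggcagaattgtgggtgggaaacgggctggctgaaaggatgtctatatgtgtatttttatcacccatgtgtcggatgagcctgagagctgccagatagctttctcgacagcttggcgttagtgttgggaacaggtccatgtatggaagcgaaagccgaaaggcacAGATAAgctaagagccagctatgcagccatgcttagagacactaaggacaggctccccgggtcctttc

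The Pln stretch was poor in G and C (32.0%), against 59.6% for Hrc and 50.4% for Slc8a1. It held TATAAA, with its first base 219 bases before the start, and the GATA letters on the opposite strand. The E-box of Hrc began 22 bases and the GATA letters of Slc8a1 began 68 bases before the start. Both Cacnb2 promoters listed also held CAGCTG, and none of the 5 motifs stood in those of Ryr2, Casq2, Cacna1c or Camk2d. Such matches are common: of 32851 promoters searched in the same way, 12.4% held TATAAA, 9.99% AGATAA, 3.20% the MEF2 motif, 12.6% CATTCC and 13.001% CAGCTG. Pln lies on chromosome 10 at 53337686 to 53345999, Hrc on chromosome 7 at 45335269 to 45338973 and Slc8a1 on chromosome 17 at 81373105 to 81738387, and Atp2a2 lies on chromosome 5 at 122453513 to 122502225. All 10 members are annotated as protein-coding genes.

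Values are given in CPM, counts scaled to the library size by the TMM method, as the authors deposited them. CPM is not corrected for gene length, so levels are compared between groups and not between genes. Differences were tested with limma on log2(CPM + 1) over 12487 genes of the first table and 12555 of the second, and q values are the p-values of that fit after Benjamini-Hochberg adjustment. A gene is said to rise or fall where its q value is under 0.05. The tables were normalized separately, so tests stay within a table. By an estimate from the lowest values, the libraries of the first table held between 12553519 and 18952669 reads on listed genes, so 1 read was worth between 0.0313 and 0.0479 CPM, far below every member. The depth of the second table is unknown.

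Libraries that stood apart were looked for before the members were compared. At 24 h post-MI without injection, library G had the highest value of 9 of the 10 members in its group. In the second table, AC library C at 24 h and AC libraries 1 and 2 at 4 h were less like their groups than the other libraries of those groups. Their mean correlations across genes with their own groups were 0.961, 0.967 and 0.959. The 48 h Luc libraries were spread as well, and the lowest correlation across genes of each with another of its group lay between 0.945 and 0.957. Libraries 2 and 4 correlated more with the 48 h AC hearts (mean 0.974 and 0.977) than with their own group (0.970 and 0.961). Libraries 1 and 3 were closer to their own group (0.969 and 0.962) than to any other. Every AC library at 4 h and at 24 h, and Luc library A at 24 h, also correlated more with another group than with its own. Muscle transcripts were high in the sham hearts of the first table, where 15 contractile genes summed to between 63861 and 69104 CPM. Most of these genes are used by atria and ventricles alike, so their sum does not tell the chambers apart. The atrial light chain Myl7 is not listed in the first table and lay between 0.0326 and 0.0952 CPM in the sham hearts of the second. The atrial markers listed in the first table summed to between 84.2 and 298 CPM in sham hearts and between 1151 and 1823 CPM at 24 h, with 1 of the 3 tested higher, Nppa, and 1 lower.

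At 4 h post-MI without injection, none of the 10 members passed the test, and none had an unadjusted limma p under 0.05, where 2.37% of all genes passed. Pln was 5823, 6662 and 6067 CPM in the sham hearts and 5276, 5535 and 5834 CPM at 4 h, so the groups overlapped. Its log2 fold change was -0.16 with a 95% interval from -0.81 to 0.50. Slc8a1, Cacna1c and Cacnb2, the exchanger and the channel subunits of the cell membrane, lay below every sham heart in all 3 hearts at 4 h. The same count was not made over all genes. For Slc8a1 the values were 434, 490.0 and 393 CPM in sham and 288, 319 and 322 CPM at 4 h, a log2 fold change of -0.50 (q = 0.462). Without library G of the 24 h group, which widens the common estimate of the spread, this difference had a q value of 0.0254. The SR genes Casq2, Trdn and Hrc stayed within 5% of their sham mean at 4 h, with q values of at least 0.903.

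**Figure D1:**
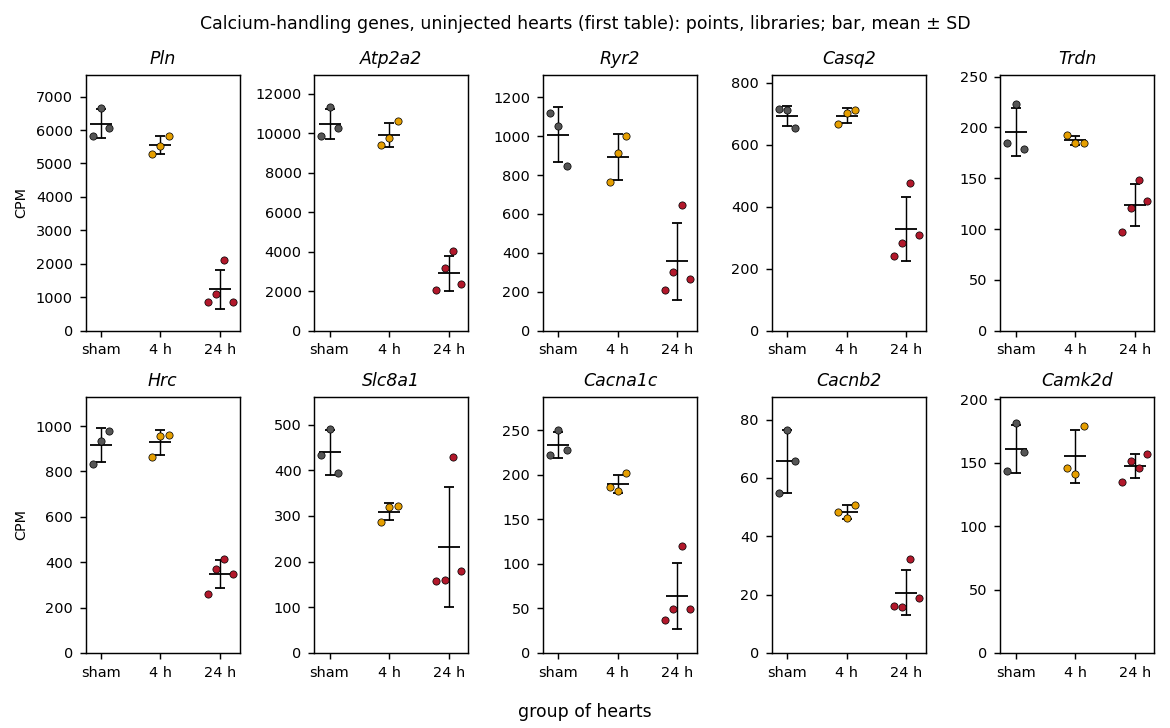
Level in CPM (vertical axes, from 0) of the 10 calcium-handling genes in the uninjected hearts, by group (sham, 4 h and 24 h post-MI). Each point is a library and the bars give the mean and SD of 3, 3 and 4 libraries. The 24 h hearts sit below the other hearts for 8 genes, 1 of the 24 h hearts reaches the sham range for Slc8a1, and Camk2d overlaps throughout. The count of 8 has no share of all genes beside it.

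At 24 h post-MI, 9 of the 10 members had fallen against sham and none had risen, where 30.3% of all genes fell and 35.6% rose. The median log2 fold change of the members was -1.52, beside 0.04 over all genes tested. Against 4 h, 8 members fell and none rose, where 26.7% of all genes fell and 37.2% rose. These comparisons share the 24 h libraries. In bulk tissue, fewer cells of a type and less RNA per cell cannot be told apart. Over the same hearts the 15 contractile genes summed to between 38272 and 56938 CPM at 24 h, with 6 of 15 lower and 2 of 15 higher, and all 10 neutrophil and monocyte markers rose, from a sum of 61.6 to 125 CPM in sham to between 716 and 2694 CPM. The part of these shifts in the members' fall was not tested. The comparison with the contractile genes given further on is a description.

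Pln had the largest log2 fold change of the 10 members, and its pump fell with it. Pln was 863, 1103, 2107 and 844 CPM in the 4 hearts at 24 h, and the highest of these, library G, was below the lowest heart of either earlier group. Its mean was 0.199 ± 0.0975 of the sham mean (ratio of group means with propagated SD, n = 4 and 3), and the log2 fold change was -2.44 (95% interval -3.05 to -1.82, q = 1.95e-05). Without overlap, Atp2a2 went from 9842, 11338 and 10261 CPM in sham, and 9422, 9756 and 10617 CPM at 4 h, to 2039.8, 3163, 4020.2 and 2374 CPM at 24 h. That was 0.277 ± 0.0867 of the sham mean, with a log2 fold change of -1.90 (q = 4.08e-05).

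The release channel and the storage proteins of the SR followed to differing degrees. Ryr2 was 1121, 1051 and 848 CPM in sham, 765, 913 and 1002 CPM at 4 h, and 211, 303, 647 and 263 CPM at 24 h (log2 fold change at 24 h -1.63, q = 0.000663). The gap to sham was narrowest in library G. Hrc was 832, 935 and 978 CPM in sham and 262, 369, 413 and 349 CPM at 24 h, with a log2 fold change of -1.41 (q = 1.18e-05), and its 24 h hearts lay closer together than those of Ryr2. Casq2 was 713, 709.9 and 654 CPM in sham and 241, 281, 477 and 309 CPM at 24 h (-1.13, q = 0.000313). Trdn fell least among the genes that fell, from 185, 223 and 179 CPM to 97.3, 121, 148 and 128 CPM (-0.67, q = 0.00113). All 4 of these SR genes separated the 24 h hearts from the sham hearts without overlap, but how many of all genes did so was not counted.

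Of the genes of the cell membrane, both L-type channel subunits fell. Cacna1c was 222, 249.96 and 227 CPM in sham, 186, 182 and 201 CPM at 4 h, and 37.3, 49.9, 119.6 and 48.8 CPM at 24 h (log2 fold change against sham -1.999, q = 0.000122). Cacnb2, at 55.0, 76.6 and 65.9 CPM in sham, reached 16.1, 15.6, 32.3 and 18.8 CPM at 24 h (-1.67, q = 4.17e-05). In both genes library G was the highest 24 h heart and still below all hearts of the other groups. Slc8a1 was 158, 159.9 and 179 CPM in 3 hearts at 24 h and 428 CPM in library G, which lies within the sham range, and the fall against sham had a log2 fold change of -1.06 (q = 0.00725). Against 4 h, the Slc8a1 difference had a q value of 0.113, and 2.28e-05 without library G.

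Camk2d was the exception. It was 144, 181 and 159 CPM in sham, 146, 141 and 179 CPM at 4 h, and 135, 152, 146 and 157 CPM at 24 h, so all groups overlapped. The log2 fold change at 24 h was -0.12 with a 95% interval from -0.38 to 0.13 (q = 0.366), a range that does not reach the change of any other member at that time.

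**Figure D2:**
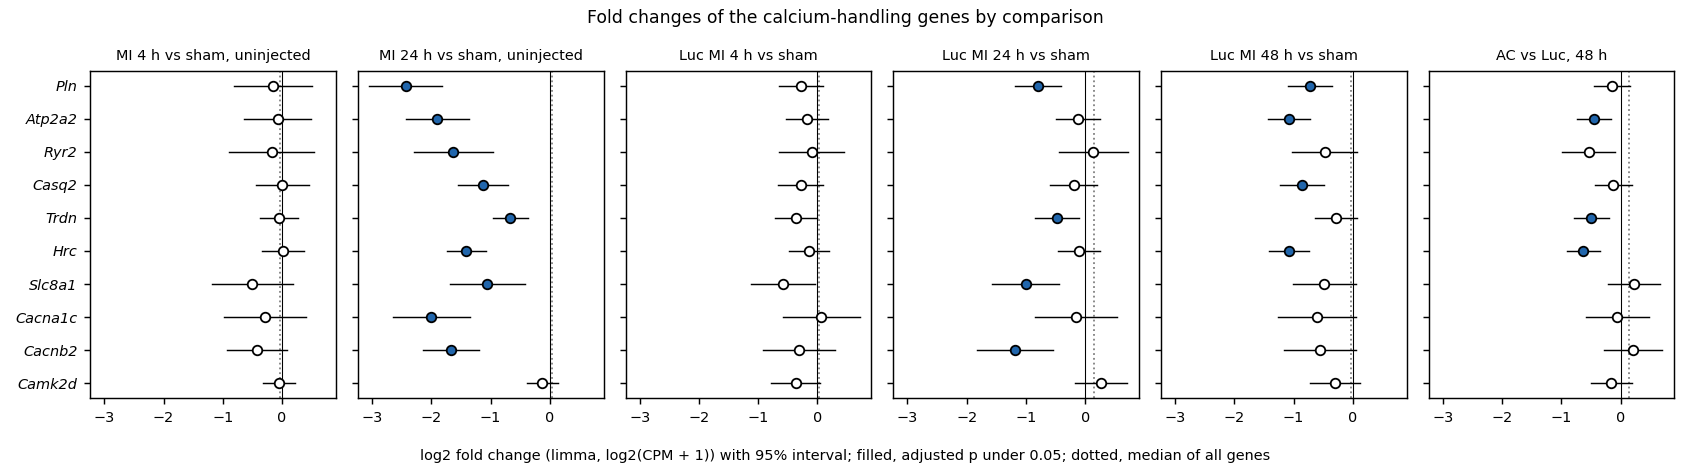
Log2 fold change of each member from limma on log2(CPM + 1) (horizontal axes) in 6 comparisons, with 95% intervals. Filled points have an adjusted p under 0.05 and the dotted line is the median of all genes: in the uninjected hearts at 24 h 9 members are filled and lower, at 4 h none is, and in the injected hearts 4 are filled at 24 h and 4 at 48 h.

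The second table repeats the time course in hearts injected with Luc modRNA, against its own 2 sham hearts. At 4 h, none of the 10 members passed the test, where 1.55% of all genes did, and 2 members, Trdn and Slc8a1, had an unadjusted limma p under 0.05. At 24 h, 4 members fell and none rose (Pln, Trdn, Slc8a1 and Cacnb2), where 8.79% of all genes fell and 25.3% rose. At 48 h, 4 members fell and none rose (Pln, Atp2a2, Casq2 and Hrc), where 16.4% of all genes fell and 13.7% rose. The medians of the members were -0.28, -0.17 and -0.58 on the log2 scale at 4, 24 and 48 h, beside 0.02, 0.16 and -0.03 over all genes. Scaling each library by the median ratio or to an equal total instead moved the median of all genes at 24 h against sham by -0.17 and -0.27, and the split of all genes that fell and rose went from 1103 and 3172 to 2012 and 2302 and to 2483 and 1836. At 48 h the equal-total scaling moved the median by 0.15 and the split from 2060 and 1714 to 1286 and 2502. Directions in this table are therefore read beside those medians. Other cell markers moved in the same comparisons: 7 of 10 neutrophil and monocyte markers were higher at 24 h and 9 of 10 at 48 h, with sums from 86.9 to 164 CPM in sham, 345 to 1267 CPM at 24 h and 368 to 873 CPM at 48 h. Of 7 fibroblast markers 3 were higher at each time, with sums from 789 to 861 CPM in sham, 935 to 1417 CPM at 24 h and 877 to 1700 CPM at 48 h, and of 6 macrophage markers 2 were higher and 1 lower at 24 h and 3 were higher at 48 h. Their part in the falls of the members was not tested.

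Pln was 6215 and 4680.1 CPM in these sham hearts and 4388, 4564, 4312 and 4562 CPM in Luc hearts at 4 h. It was 2952, 3135 and 3280.3 CPM at 24 h and 3139.9, 3951, 2535 and 3667 CPM at 48 h in Luc libraries 1, 2, 3 and 4, always below both sham hearts. The log2 fold changes against sham were -0.79 at 24 h (q = 0.00269) and -0.72 at 48 h (q = 0.00421). They rest on the higher sham heart: with that library, number 1, left out, the q values were 0.0932 and 0.118, the lone sham heart being taken to vary like the other groups. At 48 h the call also ended with only the groups compared in the fit (q = 0.112) and with array weights (q = 0.0523). From 4 to 24 h, without sham hearts, the log2 fold change was -0.51 (q = 0.0154), but it did not pass without Luc library A at 24 h (q = 0.0621) or with no filter on low values (q = 0.0648). Pln did not pass from 24 to 48 h (0.07, 95% interval -0.25 to 0.40).

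The calls for Atp2a2 differed from those for Pln. The sham hearts had 9801 and 12427 CPM and the 4 h Luc hearts 9712, 10064, 10438 and 9023 CPM. At 24 h it was 10451, 9766 and 10213 CPM, within that range, with a log2 fold change against sham of -0.12 (95% interval -0.50 to 0.25). Under the equal-total scaling alone this difference passed, at -0.43 (q = 0.0497). At 48 h it was 6112, 4396, 5371 and 5075 CPM in libraries 1 to 4, below every other sham and Luc heart, a log2 fold change of -1.08 against sham (q = 8.04e-05) and of -0.96 against 24 h (q = 7.12e-05). Under the deposited scaling, Pln thus passed the test at 24 h and Atp2a2 only at 48 h in these injected hearts. This alone does not show a difference in timing between the 2 genes. Their ratio at 24 h against sham gave an exact permutation p of 0.2, the smallest these group sizes allow.

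Hrc resembled the pump. It was 1181 and 1390.2 CPM in sham, 1077, 1095 and 1435 CPM in Luc hearts at 24 h, and 707, 541, 636 and 552 CPM at 48 h (log2 fold change against sham -1.08, q = 5.20e-05). Casq2, too, fell at 48 h (-0.86, q = 0.00123), from 1036 and 790.5 CPM in sham to between 418 and 637 CPM. Ryr2 was 799 and 962 CPM in sham and lay between 903 and 1081 CPM at 24 h and between 551 and 725 CPM at 48 h, where the difference from sham did not pass (-0.48, q = 0.181). Trdn was 236 and 185 CPM in sham and between 149 and 154 CPM at 24 h, a log2 fold change of -0.47 with a q value of 0.0478, a call that was lost in 20 of 33 alternatives. Without sham library 1 it was -0.30 (q = 0.387). It was back among the sham values in library 1 at 48 h, at 223 CPM.

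Slc8a1 and Cacnb2 were lowest at 24 h. Slc8a1 was 358 and 376 CPM in sham, 222, 168 and 162 CPM at 24 h (log2 fold change -1.01, q = 0.00689, or 0.0528 without sham library 1) and 233, 298, 170.4 and 399 CPM at 48 h in libraries 1 to 4. Cacnb2 was 52.0 and 62.7 CPM in sham and 26.6, 25.9 and 21.4 CPM at 24 h (-1.19, q = 0.00517). At 48 h it was 41.6, 49.5, 19.5 and 55.0 CPM. For both genes the 48 h hearts spread from the 24 h level to the sham level, and neither difference from sham passed at that time, although that of Slc8a1 did without Luc library 4 (q = 0.0349). Cacna1c gave no call at any time with all libraries, and its sham hearts were at 128 and 239 CPM. Without Luc library 4 at 48 h it passed as lower against sham (-0.87, q = 0.0258) and against 24 h (-0.71, q = 0.0341).

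**Figure D3:**
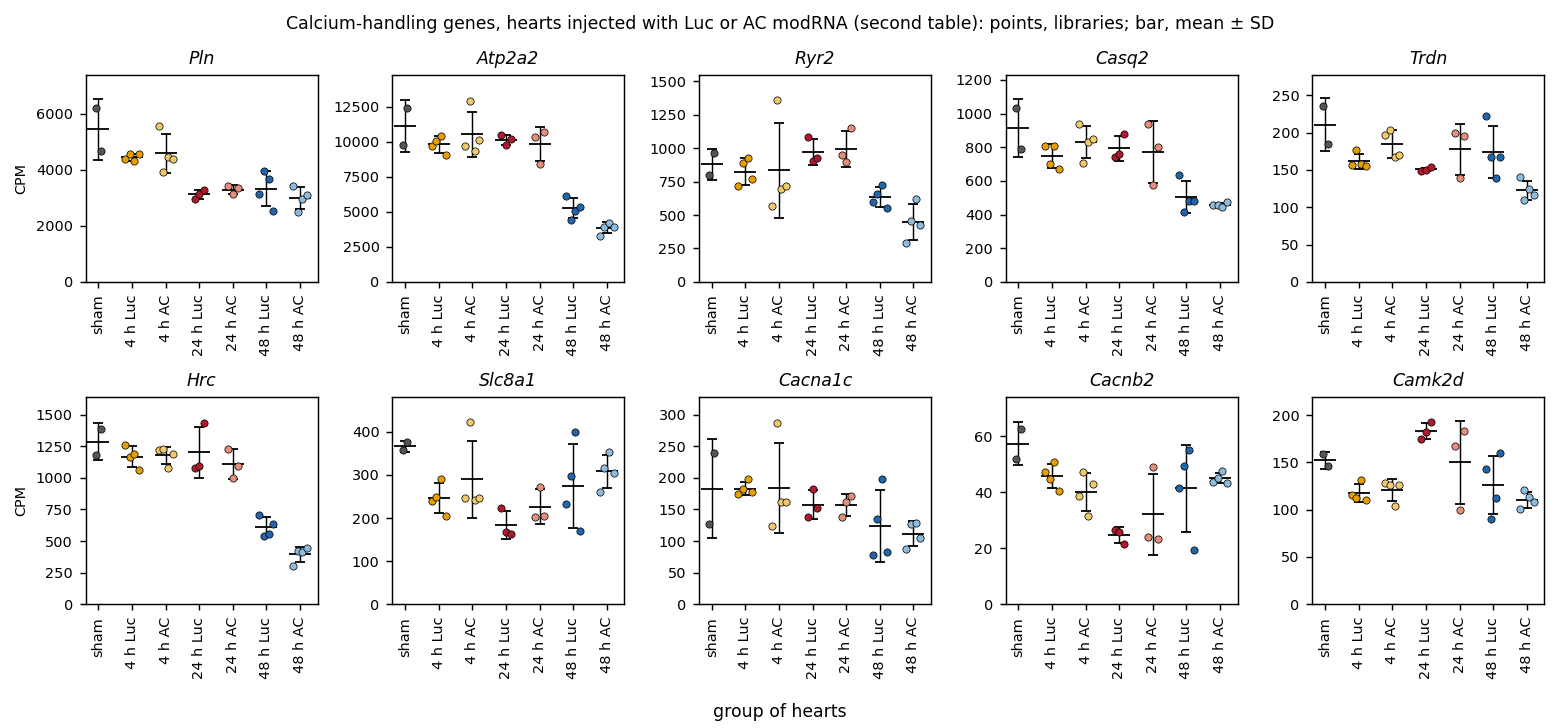
Level in CPM (vertical axes, from 0) of the 10 genes in the second table, by group (2 sham hearts, then Luc and AC hearts at 4, 24 and 48 h). Points are libraries and bars the mean and SD. Pln is below both sham hearts in Luc hearts at 4, 24 and 48 h and in AC hearts from 24 h on. Atp2a2 and Hrc drop at 48 h, and the AC hearts at 48 h lie below the Luc hearts for Atp2a2 and Hrc.

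The steps between times, which use no sham heart, were tested in the Luc hearts as well. From 4 to 24 h, 2 members fell (Pln and Cacnb2, -0.87, q = 0.0130) and 1 rose (Camk2d, 0.64, q = 0.00936), where 7.8% of all genes fell and 24.5% rose. Both falls rested on single libraries at 24 h: Pln did not pass without Luc library A (q = 0.0621), nor Cacnb2 without Luc library D (q = 0.0579). Camk2d went from 116, 113, 132 and 110.4 CPM to 175, 182 and 193 CPM. The rise did not pass under the median-ratio scaling (q = 0.0537) or the equal-total scaling (q = 0.0505), under which the median of all genes moved by -0.15 and -0.19 and the all-gene split from 979 lower and 3079 higher to 1803 and 1964 and to 1839 and 1708. From 24 to 48 h, 5 members fell and none rose, where 32.6% of all genes fell and 9.32% rose. These were Atp2a2, Hrc (-0.98, q = 3.91e-05), Casq2 (-0.67, q = 0.00243), Camk2d (-0.57, q = 0.0147) and Ryr2 (-0.62, q = 0.0369). Camk2d did not pass without Luc library D at 24 h (q = 0.0573) or library 2 at 48 h (q = 0.0657), and the q value of Ryr2 lay between 0.0561 and 0.116 without any one of Luc libraries A, C and D at 24 h or 1, 2 and 3 at 48 h.

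That last comparison depended on the scaling more than any other. The median-ratio and the equal-total scaling moved the median of all genes by 0.22 and 0.43 and turned the all-gene split from 4088 lower and 1170 higher to 2054 and 2028 and to 945 and 3255. Among the members the split went from 5 lower and 0 higher to 3 and 3 and to 2 and 4. Atp2a2 and Hrc were lower under all 3 scalings. Slc8a1, Cacnb2 and Trdn passed as higher under both alternatives, for Cacnb2 with a log2 fold change of 0.88 and 1.099, and Pln under the equal-total scaling alone (0.55, q = 0.00852). Their deposited values gave 0.52, 0.64, 0.19 and 0.07, with q values of 0.0675, 0.0516, 0.318 and 0.737.

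A ratio of genes within a library does not depend on its scaling. Because CPM is not per length, the level of the Pln to Atp2a2 ratio has no meaning of its own, and only its change is read. In the uninjected hearts it lay between 0.588 and 0.592 in sham, between 0.550 and 0.567 at 4 h and between 0.349 and 0.524 at 24 h, with no overlap between the groups. The mean log2 difference at 24 h against sham was -0.54. Two-sided exact permutation tests gave p = 0.0571 for 24 h against sham and against 4 h and p = 0.1 for 4 h against sham, each the smallest p these group sizes allow, and adjusted over 9 comparisons 0.257, 0.257 and 0.3. A q value under 0.05 was thus out of reach in these 3 comparisons.

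In the second table the sham hearts differed widely, at 0.377 and 0.634. The ratio was between 0.413 and 0.506 in Luc hearts at 4 h, between 0.282 and 0.321 at 24 h, below the sham hearts and the Luc hearts at the other times, and between 0.472 and 0.899 at 48 h. Exact permutation p-values against sham were 0.667, 0.2 and 0.4 at 4, 24 and 48 h, where 0.133, 0.2 and 0.133 are the smallest possible, and none passed after adjustment. The AC hearts gave between 0.304 and 0.573 at 4 h, between 0.313 and 0.370 at 24 h and between 0.631 and 1.04 at 48 h. AC against Luc gave exact permutation p-values of 0.8, 0.3 and 0.286, where 0.0286, 0.1 and 0.0286 are the smallest possible.

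**Figure D4:**
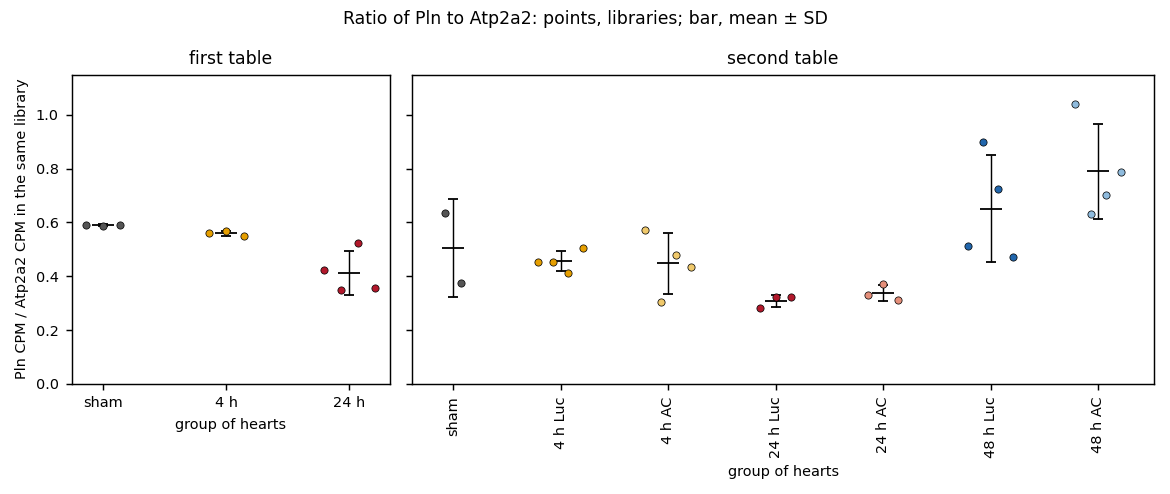
Pln CPM divided by Atp2a2 CPM in the same library (vertical axis, no unit, from 0) for each group of both tables. Points are libraries and bars the mean and SD: the ratio is tight in first-table sham hearts, lies between 0.349 and 0.524 at 24 h, and in the second table Luc hearts are lowest at 24 h and both Luc and AC hearts reach their highest values at 48 h.

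To set the members beside other CM transcripts, each was divided by the summed CPM of 15 contractile genes in the same library, a description with no test. In uninjected hearts 24 h post-MI, 8 members lay below all sham hearts and none above, with a median fold of 0.506 against sham. The same count was not made over all genes, so no share of all genes stands beside the counts given here. Pln was 17.5 to 37.0 CPM per 1000 CPM of contractile genes at 24 h and 87.4 to 96.4 in sham. At 4 h the median fold was 0.900, with 4 members below all sham hearts. Against the sum of 7 endothelial genes, which lay between 440.0 and 694 CPM over the first table, the median fold at 24 h was 0.377.

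In Luc hearts the contractile sum itself varied, from 71902 and 76199 CPM in sham to between 92402 and 117030 CPM at 24 h and between 50397 and 72678 CPM at 48 h. Relative to it, 8 members lay below both sham hearts at 24 h (median fold 0.637) and 3 at 48 h (0.918). These counts, too, have no count over all genes beside them. Pln per 1000 contractile CPM was 65.1 and 81.6 in sham, 28.03 to 33.9 at 24 h and 41.2 to 78.0 at 48 h. Atp2a2 was 129 and 173 in sham, 87.3 to 111 at 24 h and 84.1 to 101 at 48 h, below the sham hearts at both times. From 24 to 48 h, 12 of the 15 contractile genes fell, and relative to their sum Pln, Trdn, Slc8a1 and Cacnb2 lay above all 24 h hearts at 48 h whereas Hrc lay below them.

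AC modRNA was compared with Luc modRNA at the same times. At 4 h and at 24 h none of the 10 members passed and none had an unadjusted limma p under 0.05, where 0.00796% of all genes, 1 gene at each time, passed. The intervals bound the members' differences: for Pln the log2 fold change was 0.03 (95% interval -0.27 to 0.33) at 4 h and 0.08 (-0.27 to 0.42) at 24 h, and for Atp2a2 0.09 (-0.20 to 0.38) and -0.06 (-0.39 to 0.28). At 48 h, 3 members were lower in AC hearts and none was higher, where 3.27% of all genes were lower and 12.1% higher. The median of the members was -0.15 beside 0.14 over all genes, and the median-ratio scaling moved the latter by -0.12 and the all-gene split from 410 lower and 1516 higher to 774 and 844.

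Hrc was 306, 418, 412 and 444 CPM in AC hearts and 707, 541, 636 and 552 CPM in Luc hearts at 48 h, without overlap, a log2 fold change of -0.63 (95% interval -0.91 to -0.35, q = 0.00315). Atp2a2 was 3289.6, 3942, 4218 and 3933 CPM in AC hearts, below the lowest Luc heart at 4396 CPM, with a log2 fold change of -0.44 (q = 0.0358). Trdn was 140.3, 110.0, 124 and 116 CPM in AC hearts against 223, 168, 168 and 139 CPM in Luc hearts, an overlap at 1 heart of each group, with -0.49 (q = 0.0209). Only Hrc kept its call whichever of the 8 hearts was left out: the q value of Atp2a2 reached 0.110 and that of Trdn 0.0915, both without Luc library 1, and with no filter on low values Atp2a2 did not pass (q = 0.202). Pln itself was 3417, 2489, 2965 and 3096 CPM in AC hearts. Only AC library 2 lay below the lowest Luc heart, at 2535 CPM, so the groups overlapped. The log2 fold change was -0.14 (95% interval -0.44 to 0.16, q = 0.549), and Pln passed as lower only with array weights (-0.29, q = 0.0468).

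Other cell markers moved with the 48 h comparison. The 15 contractile genes summed to between 37263 and 49580 CPM in AC hearts, below the lowest Luc heart at 50397 CPM, with 3 of 15 lower. The 7 fibroblast markers summed to between 2085 and 3533 CPM in AC hearts and between 877 and 1700 CPM in Luc hearts, with 5 of 7 higher, and 3 of 6 macrophage markers were higher. Relative to the contractile sum, no member lay wholly above or below the Luc hearts, and the median fold was 1.13. Hrc per 1000 contractile CPM was 6.17 to 11.1 in AC hearts and 9.73 to 11.0 in Luc hearts.

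Whether the AC effect itself differed between times was tested as an interaction. Between 4 and 24 h none of the 10 members passed and none had an unadjusted limma p under 0.05, where 0.00796% of all genes passed. Between 24 and 48 h again none passed, where 2.56% of all genes did, and 2 had an unadjusted limma p under 0.05: Trdn, with a difference of -0.71 on the log2 scale (q = 0.0796), and Hrc, with -0.52 (q = 0.192). A lower level in AC hearts is thus not shown to be particular to 48 h for these genes. With AC library C at 24 h left out, the Trdn interaction passed (q = 0.0272).

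The wider calcium pathway was followed in 9 lists of 107 related genes, none of them members, of which 89 could be tested in the first table and 88 in the second. In uninjected hearts, 0 fell and 4 rose at 4 h, and 38 fell and 26 rose at 24 h, so that both directions were common, beside 30.3% and 35.6% of all genes. In Luc hearts against sham, 0 fell and 2 rose at 4 h (1.55% of all genes in either direction), 3 and 22 at 24 h (8.79% and 25.3%), and 14 and 9 at 48 h (16.4% and 13.7%). AC against Luc gave no call among them at 4 h or 24 h, and 5 lower and 5 higher at 48 h, of 88 tested, where 3.27% of all genes were lower and 12.1% higher.

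Among 13 tested genes of SR release and storage in uninjected hearts at 24 h, 5 fell and 5 rose. Tmem38a, a potassium channel of the SR, fell by 1.42 on the log2 scale, whereas Fkbp1a, a ryanodine receptor binding protein, rose by 1.13 and Hax1, which binds phospholamban, rose by 1.60. Of 12 tested voltage-gated channel genes, 5 fell and 3 rose: the T-type channel Cacna1g fell by 2.11, and Rrad, a small GTPase that restrains L-type channels, rose by 1.001. Rrad had already risen at 4 h (1.32) and, in Luc hearts, at 4 h (2.16, q = 0.00790) and 24 h (1.64). Of 7 plasma membrane pumps and exchangers, 5 fell and none rose.

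Of 16 genes of calmodulin, its kinases and phosphatases, 5 fell and 6 rose in uninjected hearts at 24 h. The kinase Camk2a fell by 2.22, a direction opposite to Rcan1, a calcineurin inhibitor induced by calcineurin signaling, which rose by 2.28, and to the phosphatase catalytic subunit Ppp1cc, which rose by 1.04. Of 13 genes of cAMP and PKA signaling, 8 fell and 3 rose. The adenylyl cyclase Adcy5 fell by 1.67 and the phosphodiesterase Pde3a by 1.30, and the phosphodiesterase Pde4b rose by 1.66. Of 10 genes of IP3 receptors and store-operated entry 4 fell and 3 rose, with the receptor Itpr2 at -0.91 and the entry channel Orai1 at 0.82. Of 9 genes of mitochondrial calcium uptake 2 fell and 3 rose, with Mcur1 at -0.74, and of 8 scaffold genes of the T-tubule and dyad 3 fell and 3 rose, with the ankyrin Ank2 at -2.05 and Tcap at -1.14.

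At 48 h in Luc hearts the genes that moved included Srl (sarcalumenin, a calcium-binding SR protein, -0.55), Asph (-0.64), Camk2a (-1.47), Ank2 (-0.88), Prkaca, a catalytic subunit of PKA (-0.65), and Ppp1cb, a phosphatase catalytic subunit (0.90). Of these, Ank2 did not pass under the equal-total scaling (-0.71, q = 0.0954). Between AC and Luc hearts at 48 h, the SR channel gene Tmem38b (-1.25) and the junctional protein gene Jph1 (-0.75) were lower and Calr, the endoplasmic reticulum calcium binder calreticulin, was higher (0.77).

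Sarcolipin (Sln), like phospholamban a small inhibitor of SERCA, is a transcript of the atria in the mouse heart. In the first table it lay between 0.0313 and 0.457 CPM in all 10 hearts, close to the value of 1 read in most of them. In the second table it was at most 0.255 CPM in the sham and 4 h hearts, 14.3, 3.54 and 18.2 CPM in Luc hearts and 56.3, 1.84 and 12.4 CPM in AC hearts at 24 h. Its log2 difference in Luc hearts at 24 h against sham was 3.41, a size that depends on the 1 added to low values. Sln passed the filter of a mean of at least 1 CPM only through its 24 h and 48 h values, so no test of this difference is read. The atrial genes Myl7 and Myl4 moved with Sln: Myl7 was at most 0.147 CPM in sham and 4 h hearts and 17.0 to 61.3 CPM in Luc hearts at 24 h. Myl7, too, passed the filter only through the later hearts, so no test of it is read. The atrial markers listed, Sln among them, summed to between 63.0 and 120 CPM in sham and between 376 and 622 CPM in Luc hearts at 24 h. The part of the atrial genes in the Sln values was not tested. The muscle regulator Mrln did not exceed 1.27 CPM, and no row is named Strit1, Arln or Erln.

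**Figure D5:**
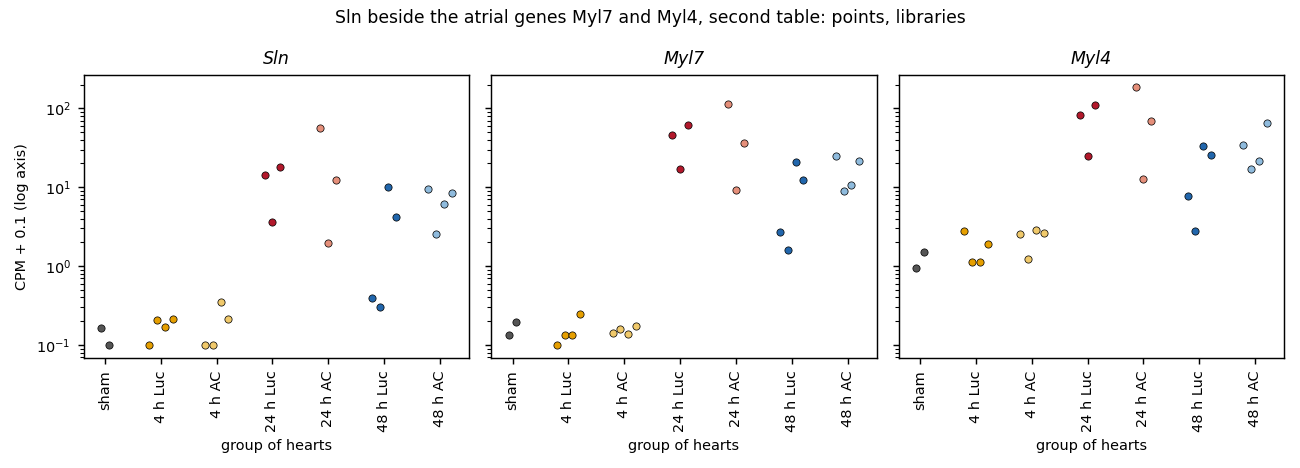
Sln, Myl7 and Myl4 in each library of the second table, as CPM + 0.1 on a log axis. All 3 genes are low in sham and 4 h hearts, higher in the 24 h hearts, and spread between libraries at 48 h.

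The genes whose levels ran most like Pln were ranked by Pearson's r of log2(CPM + 1) across libraries, a description with no test, since libraries of a group share their condition. Over the 10 libraries of the first table they were Slc2a4 (r = 0.999), Dnajc28, Sec31b, Gpd1l and Acad11 (r = 0.996), of 7694 genes compared. Slc2a4 is the insulin-responsive glucose transporter. Atp2a2 came at rank 28 (r = 0.994), the other members lay between 0.837 and 0.986, and Camk2d was at 0.375. Over the 24 libraries of the second table the leading genes were Tmem65 (r = 0.941), Msl3, Tmem70 and Svip (r = 0.930), and none of these was among the 5 of the first table. Atp2a2 had r = 0.502 there, and the members lay between -0.16 for Camk2d and 0.60 for Casq2.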

How the data were processed

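Poly(A) RNA of mouse LV was sequenced as single 50-bp reads. The authors aligned them with STAR to mm10, counted UCSC RefSeq genes by Partek's expectation-maximization and applied TMM, and deposited the result as CPM. The study's methods describe the first table, and for the second they are assumed. The second holds deposited CPM plus 1, and 1 was subtracted. No column was left unmapped. Of first-table values under 1 CPM, 82.1% were whole multiples (within 0.01) of the lowest, too few to recover reads, so no count test was used. The strand setting used in counting is not given in the sources used here.

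Groups follow the labels. Limma 3.58.1 in R 4.3.3 (lmFit, eBayes with a mean-variance trend) was fitted to log2(CPM + 1) for genes averaging at least 1 CPM, with all groups of a table in a single model and Benjamini-Hochberg adjustment (threshold 0.05). The fit was tested on simulated data. Single ratios used two-sided exact permutation tests in scipy 1.17.1, with other computations in Python 3.11.15, numpy 2.4.6 and pandas 2.3.3. Named related genes are at most the 3 largest called changes per list and comparison, with a mean of at least 10 CPM. Some genes named by these rules are not reported here. The members and lists were chosen with earlier results of these data known. Alternatives covered the pseudocount, filters, trend, array weights, groups fitted, scaling, replicate block and each library left out, plus, chosen after seeing the data, 3 AC libraries left out.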

Additional observations from a re-analysis of the deposited data

Results flagged for a closer look

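Within groups of 4 hearts, 5 of 55 checks of a member or of the Pln to Atp2a2 ratio found a library far from the others, where chance gives about 1 in 20. Library G at 24 h post-MI without injection had 428.1 CPM of Slc8a1 (158 to 179 in the others) and 119.6 CPM of Cacna1c (37.3 to 49.9). At 4 h, Luc library 2 had 177.2 CPM of Trdn (155 to 158), AC library 2 had 423.7 CPM of Slc8a1 (242 to 248) and AC library 3 had 103.6 CPM of Camk2d (127 to 128).

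Members also differed between times post-MI by the limma test of the difference itself. In uninjected hearts, 24 h against 4 h gave log2 differences of -2.28 for Pln, -1.824 for Atp2a2, -1.456 for Ryr2, -1.13 for Casq2, -0.6127 for Trdn, -1.43 for Hrc, -1.706 for Cacna1c and -1.247 for Cacnb2. In Luc hearts, 24 h against 4 h gave -0.514 for Pln, -0.8704 for Cacnb2 and 0.637 for Camk2d, the last lost under both other scalings. In Luc hearts, 48 h against 24 h gave -0.9626 for Atp2a2, -0.6183 for Ryr2, -0.6665 for Casq2, -0.9754 for Hrc and -0.5669 for Camk2d, of which Atp2a2 and Hrc passed under all 3 scalings.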

How the results depend on the processing

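Over all alternatives, 916 of 974 values of called members stayed called in the same direction, 58 no longer passed and none reversed, and 48 of 2996 uncalled values passed. Leaving out each replicate in turn gave 0 to 1 members for MI 4 h against sham without injection, 1 to 4 for Luc 24 h against sham (1 without sham library 1), 3 to 7 for Luc 48 h against 24 h, 1 to 4 for AC against Luc at 48 h and 0 to 1 for the AC effect at 48 h against 24 h. Of the 5 members called for Luc 48 h against 24 h, 3 passed without Luc library D at 24 h or library 2 at 48 h. For AC against Luc at 48 h, 1 passed without AC library 2 or 5 or Luc library 1 or 3. Array weights gave 2 members at 4 h without injection, 5 for AC against Luc at 48 h and 1 for the AC effect at 48 h against 24 h, and fitting only the groups compared gave 1 at 4 h without injection and 1 for AC against Luc at 48 h. Equal-total scaling gave 7 members for Luc 24 h against sham, and equal-total and median-ratio scaling gave 1 and 2 for the AC effect at 48 h against 24 h. Without the 3 AC libraries that stood apart, chosen after seeing the data, that count was 1. The cause of these shifts was not tested. Except for the scalings, the counts have no share of all genes under the same setting beside them. They are therefore not read as particular to the members. Over all genes, equal-total scaling moved the split of lower and higher calls from 102 and 194 to 175 and 167 for MI 4 h against sham without injection and from 37 and 157 to 54 and 127 for Luc 4 h against sham, and for the AC effect at 48 h against 24 h the split went from 42 and 280 to 81 and 257, or to 125 and 167 by the median ratio. Hrc stayed lower in AC than in Luc hearts at 48 h in all 34 alternatives. Beside the endothelial sum, 2 members were below the Luc hearts at 48 h with AC (0 beside the contractile sum) and 0 below the 24 h hearts in Luc at 48 h (1), and beside the contractile sum without Myh6 and Mb, 2 were below the 4 h hearts in Luc at 24 h (6).

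Same replicate numbers or letters mark different mice, and in no pair of groups with 3 or more shared numbers did every pair's deviations correlate above 0.1. Numbers 1 and 2 gave 0.433 and 0.334 between sham and 4 h AC hearts. Between sham and 48 h AC hearts they gave 0.417 and 0.498. Between 4 h and 48 h AC hearts, numbers 1, 2 and 4 gave 0.550, 0.445 and -0.201. The origin of these correlations was not tested. With a replicate block, 0, 9 and 9 members were called in the uninjected comparisons of 4 h and 24 h against sham and 24 h against 4 h, 0 and 4 in Luc against sham at 4 and 48 h, and 0, 0 and 2 in AC against Luc at 4, 24 and 48 h, where Atp2a2 was lost (q = 0.0857). These counts, too, have no share of all genes beside them. The block could not be fitted for Luc at 24 h against sham, 4 h or 48 h, whose libraries share no numbers. The depth of the second table is unknown, and its 2 sham hearts limit each comparison with them.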
